A study of Zea mays with 28 samples.

Results

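Narrow ZmAGO4-only regions are short stretches of the maize genome that were called for ZmAGO4 in both WT libraries and for neither DDM1 protein. Peaks of the 6 WT lists were merged wherever they shared at least 1 bp. A merged region was kept when it held a peak of both ZmAGO4 lists, held no ZmDDM1A or ZmDDM1B peak, and was narrower than 1000 bp. This gave 31400 of the 122155 merged WT regions (25.7%), and 35.2% of the 89175 regions with a peak of both ZmAGO4 lists. They covered 18.4 Mb in all. The regions were thus chosen by measured values, the presence of peaks in these lists and their width, and those values are given below as a description.

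ZmAGO4 is an Argonaute protein. In plants, AGO4-type Argonautes carry small interfering RNAs to the chromatin that those RNAs match, and recruit a methyltransferase there, the pathway called RNA-directed DNA methylation. DDM1 is a SNF2-type chromatin remodeller, best known from Arabidopsis, that gives methyltransferases access to nucleosome-bound DNA. ZmDDM1A and ZmDDM1B are its maize homologues. The title of the series sets DDM1 beside this methylation pathway on active chromatin, and the regions described here are the places where ZmAGO4 was called without either homologue.

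Chromatin came from developing embryos of field-grown W22 maize, 18 days after pollination, and was immunoprecipitated with antibodies that the submitting laboratory made. The groups used were ZmDDM1A ChIP in zmddm1a, ZmDDM1B ChIP in zmddm1b, and ZmAGO4, ZmDDM1A and ZmDDM1B ChIP in WT, with 2 libraries each. The labels do not say whether these came from separate plants, nor which alleles the mutants carry. Input, IgG, H3K9me2 and mRNA libraries were not analysed here, and the series lists ZmAGO4 ChIP in WT only.

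Peaks were placed on B73 RefGen_v4, the assembly of another inbred line, so a W22 sequence that B73 lacks cannot be among the regions. Their genes, transposons and sequences were not analysed here. In the ZmAGO4 lists there were 99625 and 98086 peaks in replicates 1 and 2. The depth, estimated from the peak values and not counted from reads, was 31.4 and 28.5 reads per kb. The WT DDM1 libraries were shallower by this estimate, at 17.9 and 17.9 reads per kb for ZmDDM1A and 13.8 and 12.8 for ZmDDM1B. The absence of a DDM1 peak therefore means that none was called at that depth, not that the protein was absent.

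Each ZmAGO4 peak is described by 3 values at its summit, the base where most fragments overlap. The pileup is the number of ChIP fragments over the summit, the background is the number expected there without enrichment, and the fold enrichment is their ratio after adding 1 to each. Fold is the authors' deposited value, and the other values were solved from the deposited fold and p-value. The lowest background in a list, its floor, was 7.72 fragments in replicate 1 and 6.93 in replicate 2. It is read here as the mean coverage of that library, which was not measured. The pileups of the 2 ZmAGO4 libraries, after scaling for depth, differed by less than Poisson counting noise. The mean squared difference was 0.709 of the Poisson expectation in narrow ZmAGO4-only regions. It was 0.689 in all regions with a peak of both ZmAGO4 lists. Over regions merged within 1 antibody and with a single peak in each library, it was 0.648 for ZmAGO4, 0.652 for ZmDDM1A and 0.859 for ZmDDM1B, so each WT pair was below 1. All these regions were called in both libraries, so the ratio cannot tell whether the libraries came from 1 sample. As a precaution, the 2 ZmAGO4 libraries were counted as 1 sample, and no SD or n is given across them. Their values stand side by side, with replicate 1 before replicate 2.

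The strongest narrow ZmAGO4-only region lay on chromosome 3 at 16793994 to 16794573, 580 bp wide. Its pileup was 388 and 378 fragments over a background of 11.5 and 11.1, a fold of 31.2 and 31.3. Next came a region of 496 bp on chromosome 6 at 172049377 to 172049872, with a fold of 29.1 and 29.5. There 253 and 233 fragments stood over a background at the floor of both lists. Both regions lay about as far from the nearest DDM1 peak, 3.24 kb for the region on chromosome 3 and 3.03 kb for the one on chromosome 6.

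The other 8 of the 10 strongest regions varied more in their distance to DDM1. On chromosome 3 at 32602260 to 32602855 the fold was 28.8 and 29.1, from 250 and 230 fragments, and a further ZmAGO4 region began 171 bp away. On chromosome 5 at 25176699 to 25177525 it was 28.5 and 29.5, from 278 and 233 fragments. On chromosome 1 at 93622340 to 93622797 it was 28.3 and 29.1, from 246 and 230 fragments, and this region had the longest gap to a DDM1 peak of the 10, at 13.9 kb. Those 3 regions again had backgrounds at or close to the floor, between 6.93 and 8.79 fragments.

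Some strong regions were close neighbours of DDM1 peaks. The region on chromosome 1 at 63371428 to 63372299, with a fold of 27.2 and 27.7 and pileups of 307 and 282, ended 0.225 kb from the nearest one. That on chromosome 5 at 172221443 to 172222110, with a fold of 28.2 and 28.1 and pileups of 245 and 222, ended 0.342 kb from one. These 2 were taken from the strongest regions by fold, so they say nothing of fold and distance in general.

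On chromosome 6, the fold was 26.6 and 27.9 at 147852461 to 147853008, and 25.8 and 26.7 at 153577338 to 153578287. The last of the 10, on chromosome 5 at 220242675 to 220243220, had a fold of 30.9 and 25.8. It was ranked by its smaller fold, and in replicate 1 alone its fold was the second of the 10. Across the 10, pileups ran between 231 and 388 fragments in replicate 1 and between 220 and 378 in replicate 2. The summits of the 2 libraries were 2 to 31 bp apart, and no region of the 10 was met by a mutant peak.

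**Figure D1:**
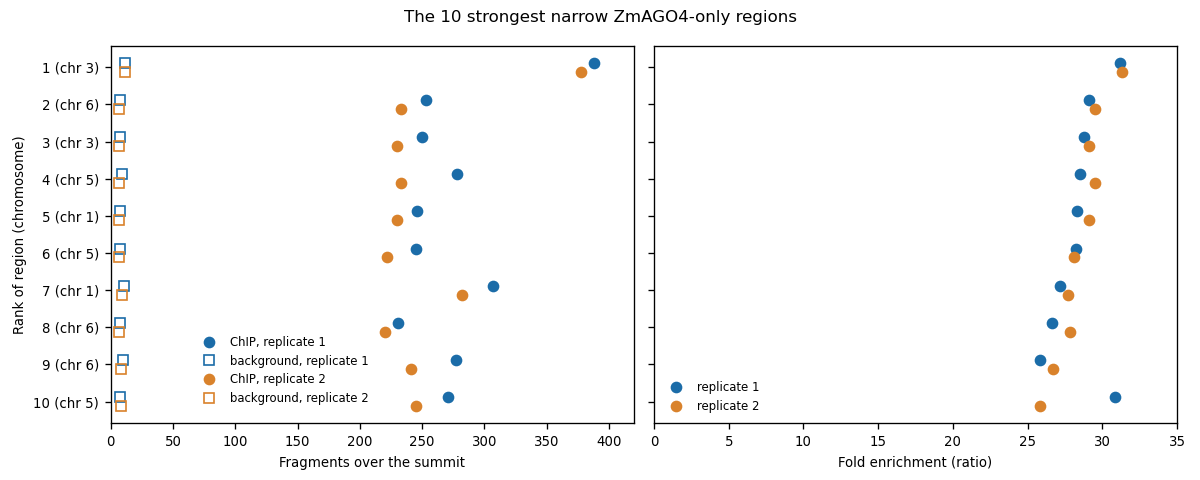
ChIP pileup (filled circles) and background (open squares) in fragments, left, and authors' fold enrichment, right, at the summits of the 10 strongest narrow ZmAGO4-only regions, ordered by the smaller of the folds in replicates 1 and 2. Backgrounds sit between 6.93 and 11.5 fragments in every region, and the pileups lie at 220 fragments or more in both libraries.

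The chromosomes that had none of the 10 strongest regions also held strong ones, ranked here too by the smaller of the 2 folds. The leading region of chromosome 10, at 85867253 to 85868013, had a fold of 27.4 and 23.7, and that of chromosome 4, at 163121738 to 163122237, had 26.6 and 23.0. On chromosome 2 at 235900229 to 235900819 it was 24.9 and 24.7, on chromosome 7 at 135467445 to 135467935 it was 25.2 and 24.7, and on chromosome 8 at 177242442 to 177243233 it was 24.9 and 24.3. Chromosome 9 had the weakest leader, at 141868947 to 141869678, with a fold of 20.5 and 21.4. By the smaller fold, the leaders of the 10 chromosomes ran from 20.5 to 31.2. Single-library folds went higher, as on chromosome 7 at 106535911 to 106536638, a region chosen after its values were seen, with 22.6 and 35.5.

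Most narrow ZmAGO4-only regions were far weaker than these. The median fold was 4.70 and 4.79, and the 5th to 95th percentiles were 2.44 to 11.9 and 2.47 to 12.0. Median pileups were 64 and 58 fragments and median backgrounds 12.7 and 11.4. A fold of at least 10 in both libraries was reached by 2055 regions (6.54%), against 24.8% of all regions with a peak of both ZmAGO4 lists. A −log10 q of at least 5 in both was reached by 29566 (94.2%), against 96.8%. Most of the regions thus also passed this stricter q-value, as did most ZmAGO4 regions, and few had a high fold.

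Ranked by fold among all regions with both ZmAGO4 peaks, narrow ZmAGO4-only regions made up 24 and 24 of the top 100, 150 and 158 of the top 1000, and 900 and 828 of the top 10000. Their share of all these regions was 35.2%. Their share was thus 24.0% and 24.0% at the very top, and lower, at 9% and 8.28%, over the top 10000. Width and the lack of a DDM1 peak chose the regions, and both go with pileup in these lists, so these ranks are a description.

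The weakest regions had many fragments over a high background. On chromosome 9 at 101158379 to 101158709 the pileup was 277 and 232 over a background of 209 and 185, a fold of 1.32 and 1.25. On chromosome 10 at 17352415 to 17352793 it was 224 and 211 over 176 and 160, a fold of 1.27 and 1.31. On chromosome 9 at 84483220 to 84484093 it was 117 and 105 over 85.6 and 73.8, a fold of 1.36 and 1.42. The pileup of the first of these lay within the range of the 10 strongest regions, and those of the other two lay below it in both libraries. All 3 had backgrounds far above the medians of 12.7 and 11.4.

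For comparison, 3 classes of ZmAGO4 regions were used. Narrow ZmAGO4 regions with a DDM1 peak (11334) share the width limit, wide ZmAGO4-only regions (16072) share the lack of DDM1, and 31158 regions of any width held a ZmDDM1A and a ZmDDM1B peak. The first of these was added after the data were seen. Narrow ZmAGO4-only regions had the lowest median background, 12.7 and 11.4 fragments. It was 17.6 and 15.6 in narrow regions with a DDM1 peak, 15.6 and 14.1 in wide ZmAGO4-only regions, and 21.5 and 19.5 in regions with both DDM1 proteins. In units of the floor these medians were 1.65 and 1.65 for narrow ZmAGO4-only regions, 2.28 and 2.24 for narrow regions with DDM1, 2.02 and 2.04 for wide ZmAGO4-only regions, and 2.78 and 2.81 with both DDM1 proteins.

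A background within 1% of the floor was found at 16.8% and 19.1% of narrow ZmAGO4-only regions. The share was 3.64% and 4.69% in narrow regions with a DDM1 peak, 2.57% and 2.74% in wide ZmAGO4-only regions, and 0.809% and 1.05% with both DDM1 proteins. Narrow ZmAGO4-only regions thus lay more often than the others where the background was at the floor. On the log2 scale the median background of narrow ZmAGO4-only regions minus that of wide ones was −0.30 in both libraries. It was −0.52 when only peaks with a fold of at least 4 were used, in the DDM1 lists as well, which also changed the regions. The planned two-sided exact sign-flip test over 2 libraries can give no p below 0.5, and gave p = 0.5, so nothing is called from it.

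Median pileups were ordered in another way. They were 64 and 58 fragments in narrow ZmAGO4-only regions, 80 and 72 in narrow regions with DDM1, 135 and 124 in wide ZmAGO4-only regions and 199 and 185 with both DDM1 proteins. The median fold was 4.70 and 4.79 in narrow ZmAGO4-only regions, against 4.43 and 4.41 in narrow regions with DDM1. It was 8.18 and 8.32 in wide ZmAGO4-only regions and 9.19 and 9.41 with both DDM1 proteins. Between the narrow classes, the one without DDM1 had fewer fragments at the summit, by 0.32 on the log2 scale, and less background, by 0.46, and its median fold was 0.10 higher. By library that difference in fold was 0.09 and 0.12.

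**Figure D2:**
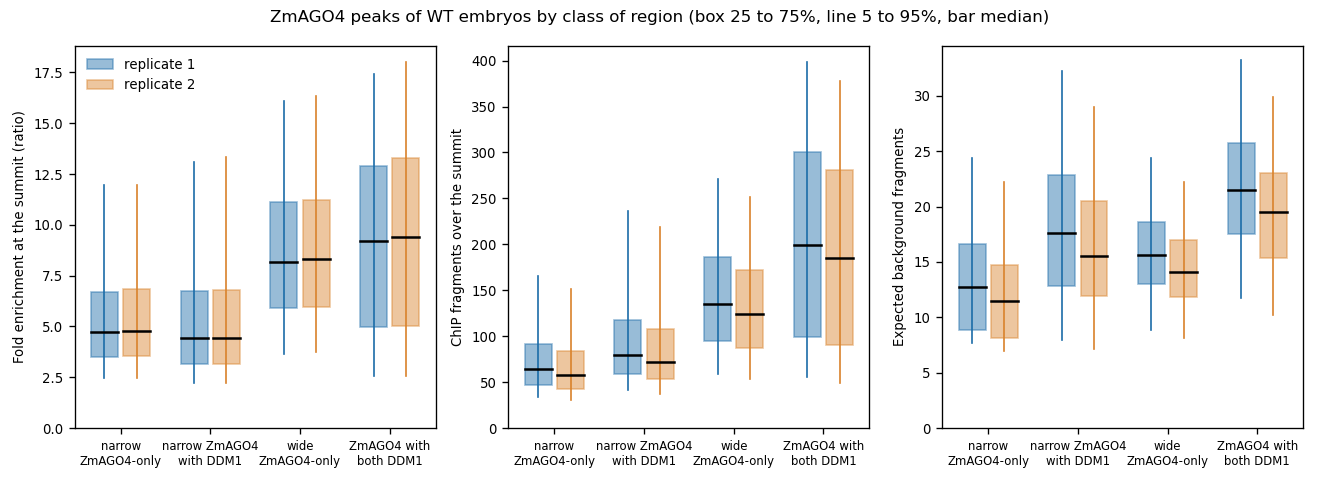
Fold enrichment (ratio, authors' values), ChIP fragments and expected background fragments at ZmAGO4 summits in replicates 1 and 2, for 4 classes of region. Boxes span the 25th to 75th percentiles, thin lines the 5th to 95th, and black bars are medians. Narrow ZmAGO4-only regions, at the left of each panel, have the lowest median pileup (64 and 58) and background (12.7 and 11.4), while their fold is close to that of narrow regions with a DDM1 peak.

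Among all narrow ZmAGO4 regions, how many lacked a DDM1 peak varied with the background. In the bin with the lowest background, of 10 bins with equal numbers of regions, 92.5% in replicate 1 and 91.6% in replicate 2 were ZmAGO4-only. In the bin with the highest background 42.7% and 42.9% were. The median background of these bins was 7.72 and 6.93 fragments at the low end, and 28.3 and 25.6 at the high end. Median fold was 6.19 and 6.18 in the lowest bin and 3.14 and 3.16 in the highest, and median width in replicate 1 was 426 bp and 683 bp. A wider region has more room to meet a DDM1 peak, and what part width or background had in this share was not tested.

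**Figure D3:**
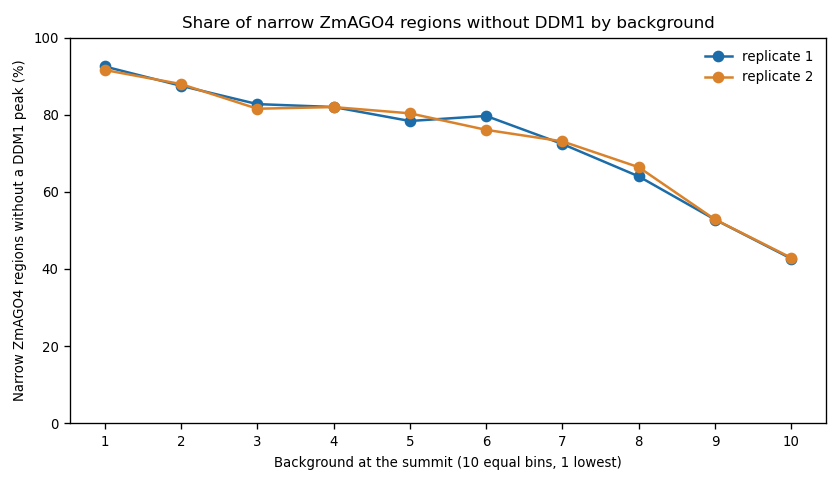
Percent of narrow ZmAGO4 regions that hold no DDM1 peak, in 10 equal bins of the background at the ZmAGO4 summit (1 is the lowest), for replicates 1 and 2. The share is 92.5% and 91.6% in the lowest bin and 42.7% and 42.9% in the highest.

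The width of narrow ZmAGO4-only regions ran from 246 bp to 999 bp, with a median of 563 bp and quartiles of 406 and 754 bp. The shortest possible peak was 246 bp in replicate 1 and 243 bp in replicate 2, the smallest width of each list. Regions of 246 bp included 3 named here, on chromosome 1 at 90984635 to 90984880, on chromosome 4 at 188296692 to 188296937, and on chromosome 5 at 77346925 to 77347170. Their folds were 3.33 and 3.53 on chromosome 1, 3.48 and 3.57 on chromosome 4, and 2.77 and 3.21 on chromosome 5, all below the median.

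Pileup and background were both higher in wider regions. Regions under 400 bp numbered 7511, with median pileups of 49 and 45 and backgrounds of 9.77 and 8.57. The 9925 regions of 400 to 600 bp had pileups of 58 and 53, and the 7773 of 600 to 800 bp had 74 and 67. In the 6191 regions of 800 bp or more, pileups were 93 and 85 and backgrounds 14.7 and 13.0. The median fold was alike in the narrower classes, 4.24 and 4.37 under 400 bp and 4.24 and 4.25 at 400 to 600 bp. It was 5.07 and 5.16 at 600 to 800 bp and 6.03 and 6.10 above that.

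At equal width of the merged region, the lower pileup and background of the ZmAGO4-only class remained. That width includes any DDM1 peak, so the ZmAGO4 peaks themselves need not be equally wide. The part in both ZmAGO4 peaks was a median of 79.7% of the width with a DDM1 peak and 86.6% without. At 400 to 600 bp narrow ZmAGO4-only regions had a median background of 12.7 and 11.2, against 16.6 and 14.5 with a DDM1 peak, and pileups of 58 and 53, against 70 and 63. At 800 bp or more the background was 14.7 and 13.0, against 19.5 and 17.1, and the pileup 93 and 85, against 107 and 97. Median fold without DDM1 was the higher one in each of the 4 width classes and in both libraries. The gap was largest at 600 to 800 bp, at 5.07 and 5.16 against 4.36 and 4.35. Width was also distributed differently, since 23.9% of the regions without DDM1 and 8.22% of those with it were under 400 bp.

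The limit of 1000 bp fell in the middle of a continuous range. Just inside it, 3 regions of 999 bp on chromosome 1 had folds of 11.7 and 9.34 (at 20917674), 10.2 and 11.5 (at 64407573) and 12.9 and 10.2 (at 123857070). Just outside, 3 ZmAGO4-only regions of 1000 bp on the same chromosome had folds of 5.34 and 6.50 (at 39390265), 4.18 and 4.22 (at 47138489) and 6.18 and 5.87 (at 260984934). These examples were taken by width alone and in genome order, and 3 on each side say nothing of the classes.

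The libraries placed the same regions with close agreement. The median distance between their summits was 28 bp, 69.0% of regions had them within 50 bp and 95.8% within 200 bp. The largest distance was 697 bp, and 1325 regions were beyond 200 bp. The shared part was a median of 86.6% of the region. More than 1 peak was merged into the region in 63 cases in replicate 1 and in 74 in replicate 2, so nearly every region was a single peak in each library. Across the 31400 regions, Spearman's rho between the libraries was 0.936 for pileup, 0.846 for fold and 0.816 for background. In all regions with both ZmAGO4 peaks it was 0.984, 0.916 and 0.813. These are given as a description, since neighbouring regions share libraries and coverage.

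A fold more than 2 times higher in one library than in the other was found in 344 regions (1.10%), 153 higher in replicate 1 and 191 in replicate 2. The share was near this, at 0.953%, in all regions with both ZmAGO4 peaks. It was 0.759% in wide ZmAGO4-only regions and 1.75% in narrow regions with DDM1. In 299 of the 344 (86.9%) the background differed more between libraries than the pileup did, against 56.2% of all narrow ZmAGO4-only regions. The median absolute log2 difference in the 344 was 0.87 for background and 0.28 for pileup.

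Single regions, chosen after their values were seen, show this. On chromosome 7 at 44494559 to 44495501 the fold was 14.2 and 4.81, with pileups of 123 and 90 and backgrounds of 7.72 and 17.9. On chromosome 10 at 536436 to 536797 it was 2.70 and 7.26, with pileups of 65 and 62 and backgrounds of 23.4 and 7.68. The highest single fold of all, 47.3, was in replicate 2 on chromosome 5 at 209153811 to 209154738, where replicate 1 gave 23.1. The pileups there were 361 and 374 and the backgrounds 14.7 and 6.93. In each of these the backgrounds of the libraries differed more than the pileups.

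A further 9446 narrow ZmAGO4-only regions had a peak of 1 ZmAGO4 list alone and are not counted among the 31400. The 5377 of replicate 1 had a median width of 297 bp, a median fold of 2.94 and a median −log10 q of 7.57. The 4069 of replicate 2 had 286 bp, 3.04 and 7.55. They were thus shorter and weaker than the regions called in both. The latter merge peaks of both libraries, so the widths are not like measures. Calling itself depends on peak strength, so this is a description.

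Distance to DDM1 was wide-ranging. The gap to the nearest WT DDM1 peak had a median of 4386.5 bp and quartiles of 1212 and 16273 bp. For wide ZmAGO4-only regions the median was 4520.5 bp. The rule keeps the gap from being an overlap and does nothing more. Within 1000 bp of a DDM1 peak lay 21.9% of narrow ZmAGO4-only regions and 21.1% of wide ones. The nearest DDM1 peak was closer for ZmDDM1B than for ZmDDM1A at 18970 regions (60.4%), with median gaps of 5379 bp to ZmDDM1B and 7700 bp to ZmDDM1A. The ZmDDM1B lists are also the longer ones, with 56570 and 53298 peaks, against 45957 and 45011.

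At the near end, 4 regions abutted a DDM1 peak without sharing a base, all of them a ZmDDM1B peak. The 3 named by rule were on chromosome 4 at 71138391 to 71139014, at 173452880 to 173453529 and at 245200871 to 245201599. At the far end, 2314 regions (7.37%) lay over 50 kb from any DDM1 peak and 564 (1.80%) over 100 kb. Wide ZmAGO4-only regions had similar shares, 6.68% and 1.38%. The farthest narrow ZmAGO4-only region was on chromosome 6 at 23247073 to 23247804, 437 kb away, with a fold of 13.2 and 8.63. A further 2 on that chromosome lay close together, at 104411940 to 104412852 with a fold of 18.0 and 13.1, and at 104415630 to 104416081 with 5.28 and 5.29. They were 428 and 425 kb from a DDM1 peak.

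Fold did not vary in 1 direction with this distance. Its median was 4.29 and 4.20 in the 316 regions under 100 bp from a DDM1 peak, and 4.79 and 4.88 in the 6546 at 100 to 1000 bp. It was 4.62 and 4.67 at 1 to 5 kb, 4.81 and 4.79 at 5 to 10 kb, 4.76 and 4.82 at 10 to 50 kb, and 4.63 and 4.72 beyond. Background was higher close to DDM1, at 16.8 and 16.1 fragments under 100 bp, and lower far from it, at 11.8 and 10.9 beyond 50 kb. Pileup was 73 and 67 under 100 bp and 59 and 54 beyond 50 kb, so both parts of the ratio were lower together.

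**Figure D4:**
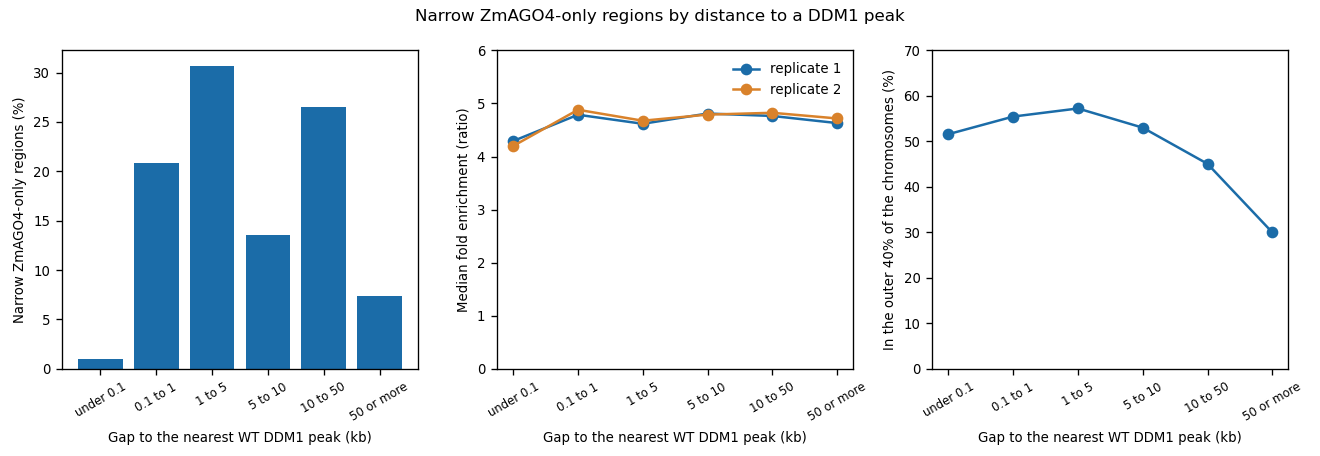
Narrow ZmAGO4-only regions by gap to the nearest WT DDM1 peak in kb: percent of the 31400 regions (left), median fold enrichment in replicates 1 and 2 (middle) and percent in the outer 40% of the chromosomes (right). Median fold stays between 4.20 and 4.88, while the outer share is 57.2% at 1 to 5 kb and 30.0% at 50 kb or more.

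Other ZmAGO4 regions were nearer than DDM1 peaks. The nearest other region with both ZmAGO4 peaks was a median of 1453 bp away, against 1193 bp for narrow regions with a DDM1 peak and 1600 bp for wide ZmAGO4-only regions. For 42.1% of narrow ZmAGO4-only regions it was within 1000 bp, close to the 40.6% of all regions with both ZmAGO4 peaks. That share was 39.2% for wide ZmAGO4-only regions and 46.3% for narrow regions with DDM1. For 743 narrow ZmAGO4-only regions (2.37%) the gap was over 50 kb, against 1.97% of all regions with both ZmAGO4 peaks. The nearest region was itself a narrow ZmAGO4-only one in 41.3% of cases, where these are 35.2% of all. It held a DDM1 peak in 41.8% of cases, where 46.8% of all do. Joining regions no more than 1000 bp apart put 5918 (18.8%) into 2787 chains, of which 2475 were pairs, and the longest held 5.

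Along the chromosomes, narrow ZmAGO4-only regions were denser toward the ends. The outer 40% of chromosome length, 20% from each end, held 16013 of them (51.0%). Of all regions with both ZmAGO4 peaks, these included, 51.7% lay there. The outer share was 59.2% for narrow regions with a DDM1 peak, 48.7% for wide ZmAGO4-only regions and 54.6% for those with both DDM1 proteins. It exceeded 40% on 10 of 10 chromosomes for narrow ZmAGO4-only regions, and was lowest on chromosome 6, at 44.8%, and highest on chromosome 5, at 56.6%. It was lower than that of narrow regions with DDM1 on 9 of 10 chromosomes and higher than that of wide ZmAGO4-only regions on 7 of 10.

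The middle 20% of the chromosomes held 14.1% of narrow ZmAGO4-only regions, against 9.98% of narrow regions with DDM1. It held 15.3% of wide ZmAGO4-only regions and 12.1% of those with both DDM1 proteins. With each chromosome cut into 10 equal lengths, the lowest share of narrow ZmAGO4-only regions was 5.60%, in the fourth, and the highest was 14.7%, in the last. Narrow regions without DDM1 were thus spread more evenly along the chromosomes than narrow regions with it.

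**Figure D5:**
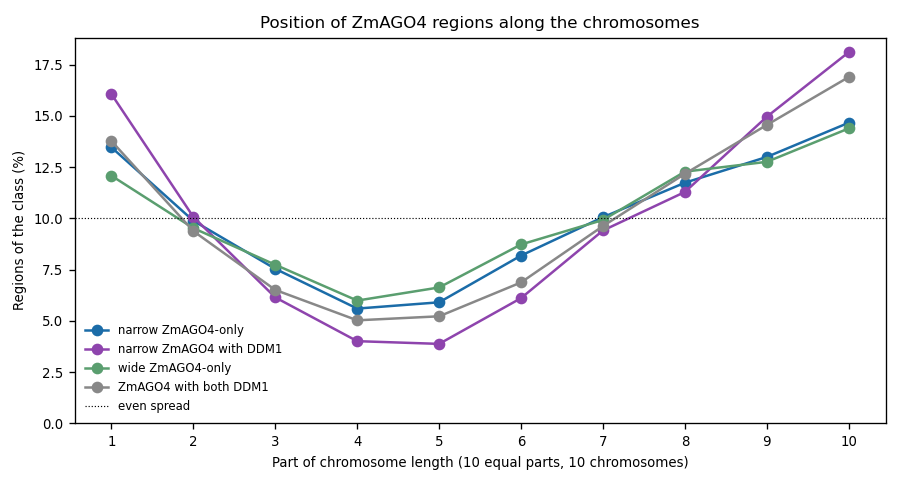
Percent of each class of ZmAGO4 region in each of 10 equal lengths of the chromosomes, over 10 chromosomes, with a dotted line at an even 10%. Narrow ZmAGO4-only regions have 13.5% in the first, 5.60% in the fourth and 14.7% in the last, a shallower dip than that of narrow regions with a DDM1 peak.

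Density by chromosome was even, from 13.7 narrow ZmAGO4-only regions per Mb on chromosome 7 to 16.1 on chromosome 2. Median fold varied between 4.64 and 4.76 among chromosomes in replicate 1 and between 4.64 and 4.87 in replicate 2. Within chromosomes the density was less even. Of 2111 bins of 1 Mb, 10 held none, the median bin held 14, and the fullest held 54, from 262 to 263 Mb on chromosome 1. The longest stretch without one ran over 2383 kb on chromosome 6, between 11089447 and 13472089.

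Regions in the outer 40% had a median fold of 4.80 and 4.89, against 4.62 and 4.66 in the inner part. Their median gap to a DDM1 peak was 3448 bp, against 5943 bp. The regions over 50 kb from DDM1 lay mostly inside, with 30.0% of them in the outer 40%, against 57.2% of those at 1 to 5 kb.

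The mutant libraries show where the DDM1 antibodies gave peaks in embryos mutated in the gene of their antigen. No mutant list was used to choose the regions, although the lack of a WT peak of the same antibodies was. Peaks of zmddm1a met 0 of the 31400 regions, against 1.06% of all merged WT regions. Taken as 3 counts of the total, a count of 0 allows a share of up to 0.00955%, and the upper end of its exact two-sided interval was 0.0117%. Peaks of zmddm1b met 10 (0.0318%, exact Clopper-Pearson 95% interval 0.0153 to 0.0586), against 1.29%. Any mutant list met 2.26% of all merged WT regions. These intervals cover counting error only.

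Narrow regions with a DDM1 peak were met more often, 185 (1.63%) by zmddm1a and 148 (1.31%) by zmddm1b. Wide ZmAGO4-only regions were met by 2 and 2. Few mutant peaks thus fell on ZmAGO4-only regions of either width, which were chosen for lacking a WT peak of the same antibodies. Of the 10 regions met, 7 were met by zmddm1b replicate 1, 3 by replicate 2 and none by both, and they lay on 8 chromosomes. Without zmddm1b replicate 1 the count was 3.

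The 10 regions had a high background at their ZmAGO4 summits, with medians of 33.2 and 32.0 fragments. In 9 of them in replicate 1, and in 7 in replicate 2, it was above 24.4 and 22.2 fragments, the 95th percentile of narrow ZmAGO4-only regions in these libraries. The count of 7 includes a background that equals the percentile, 22.2 fragments, at the precision given. Fold was below the median of narrow ZmAGO4-only regions in 9 of the 10 in each library. The exception by fold, on chromosome 2 at 184707714 to 184708422, had 5.63 and 7.85.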

How the data were processed

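Peak lists of 10 ChIP libraries were used, and the read processing was the authors'. Per the submitters' processing notes, the build was B73 RefGen_v4 and the tools included MACS2 2.1.2, Bowtie2, Trim Galore and Picard, beside Cufflinks 2.2.1 and TopHat2 2.0.10. For their roles and for peak-calling settings, the sources used here give nothing. Each deposited list belongs to 1 library and was not pooled. In the deposited files, a peak has a position, a fold enrichment (a ratio that the authors deposited), and −log10 p-values and −log10 q-values. The deposited score of each peak was not used for any result.

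The regions, the compared classes and the alternatives were chosen with earlier results of these data known. Peaks were merged at 1 bp of overlap. Where a library had several peaks in a region, the one with the highest fold was used. Pileup and background were solved from fold = (pileup + 1)/(background + 1) and a Poisson p-value. A whole-number pileup matched 99.998% of ZmAGO4 summits within 0.001 in −log10 p, and 2 summits in each list had none. The highest matched pileups were 489 in replicate 1, leaving out 1 odd solution, and 486 in replicate 2, where 2 times the smallest peak width is 492 and 486. The pileups of very strong summits thus end at about that limit, and a part of duplicate removal in this was not tested. In a test on simulated data, 100% of pileups were recovered over 19995 simulated ZmAGO4 summits, and 773 of 773 planted narrow ZmAGO4-only regions were found among 4000. The simulated fold and p-value were made with the same formulas. The test thus checks the solving, not whether the deposited values have that form.

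Named regions were the 10 with the highest smaller fold, the strongest of each chromosome, the 3 weakest, the 3 widest and 3 narrowest, 3 just over the width limit, and the 3 nearest to and farthest from a DDM1 peak. Regions met by both libraries of a mutant would also have been named. Others are said to be chosen after their values were seen. Chromosome length was the largest end in any list. Alternatives were a stricter q-value, a fold minimum, other merging, overlap and width rules, and each library left out. Base composition, motifs and gene context were planned and not run. Python 3.11.15, numpy 2.4.6, pandas 2.3.3, scipy 1.17.1 and matplotlib 3.10.9 were used.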

Additional observations from a re-analysis of the deposited data

How the results depend on the processing

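Over 98 alternatives of 8 results, 37 moved the value beyond its interval, or beyond 1.5 times for counts. A direction could turn only for the background difference, where 0 alternatives turned it. The other results are counts, medians and shares that cannot change sign. The cause of the shifts was not tested. Each interval is that of the main setting and treats the regions as independent units, although neighbouring regions share libraries and coverage. It leaves out variation between samples and is narrow, at 4.71 to 4.77 for the median fold and 28 to 29 bp for the summit distance. Small shifts thus count as moved, and the 37 describe this rule only. The background difference has no interval and kept its sign throughout, but was −0.52 with a fold of at least 4, −0.48 with up to 50% cover by DDM1 and −0.46 under 500 bp of width, against −0.30. With a −log10 q of at least 5 in every list, the median fold of narrow ZmAGO4-only regions was 4.92 and the summit distance 27 bp. The gap to DDM1 was 5251.5 bp, that to ZmAGO4 1563 bp, and 6 regions met a mutant peak. With a fold of at least 4 in every list, the rule was applied anew to lists without their weaker ZmAGO4 and DDM1 peaks. It gave 19287 regions, not all of them among the 31400. Of the 31400, 17566 had this fold in both ZmAGO4 libraries. The 19287 had a median fold of 6.45, a summit distance of 21 bp and an outer share of 52.4%. Their gaps were 7825 bp to the DDM1 peaks kept and 2845 bp to ZmAGO4, and 3 met a mutant peak. Merging across 200 bp gave gaps of 4963 and 1697 bp. Allowing up to 50% cover by DDM1 gave a fold of 4.84, a gap to DDM1 of 3512 bp and 21 met by mutants, and counting only DDM1 peaks called in both replicates gave 3490 bp and 20. Under 500 bp of width there were 12709 regions with a fold of 4.26, a distance of 22 bp, an outer share of 53.4%, gaps of 4224 and 1555 bp, and 4 met by mutants. Leaving out each library gave 31906 to 40401 regions, folds of 4.36 to 4.75, distances of 28 to 28 bp, outer shares of 50.6% to 51.1%, gaps of 4226 to 5360 bp and 1147 to 1462 bp, 3 to 14 regions met by mutants (3 without zmddm1b replicate 1), and log2 background differences of −0.30 to −0.28. No paired analysis was possible because no groups of libraries were compared, and the sign-flip test already took differences within each library. Alternatives of base composition and gene context were not run. Depth limits the absence of DDM1, since the DDM1 libraries were the shallower ones by the estimate from peak values.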

Other observations

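After the fullest 1 Mb bin, the next 4 held 51 narrow ZmAGO4-only regions (chromosome 4, from 5 to 6 Mb), 47 (chromosome 5, from 7 to 8 Mb), 44 (chromosome 6, from 133 to 134 Mb) and 42 (chromosome 5, from 12 to 13 Mb). In the middle 20% of the chromosomes the median gap to a DDM1 peak was 8001 bp, against 3448 bp in the outer 40%, with median folds of 4.49 and 4.62 in the middle and 4.80 and 4.89 in the outer part. These are values of 1 pair of ZmAGO4 libraries, given with no explanation.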
